A study of Oryza sativa with 12 samples.

Results

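Genes for the transport of nitrate, peptides, ammonium and amino acids and for nitrogen assimilation were followed in leaves of rice (Oryza sativa), of 2 varieties, QJ10 (QJ below) and LJ31 (LJ below). The groups were QJ leaves stressed with bicarbonate salt-alkali, for which the record gives a concentration of 200 mmol/L, QJ control leaves, LJ leaves under the same stress and LJ control leaves, with 3 libraries each. The sources used here state neither plant age nor the length of the treatment nor how many plants a library holds. The series record calls the 3 libraries of a group biological replicates, and p-values measure only the spread between them. Genes were chosen by name from the union of the 4 deposited tables: names starting, after a leading Os, with NRT, NPF, PTR, AMT, AAP, LHT, AAT, GLN, GOGAT, GDH, NIA, NIR or ASN and a digit, or with NAR2, GS1 or GS2. This gave 51 of 13674 genes, 26 of them with values in all 12 libraries. No listed name matched the stems NPF, NAR2, AAT, GOGAT or NIR with a digit.

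Plant leaves receive nitrate through the xylem, reduce it with nitrate reductase and nitrite reductase, and build the ammonium into glutamine with glutamine synthetase. Leaves also recover ammonium released in photorespiration, through the plastid form of that enzyme, and the cytosolic forms together with asparagine synthetase make the amides that carry nitrogen out of ageing leaves. Transporters of the NRT1 and PTR family move nitrate or short peptides, NRT2 proteins take up nitrate at low supply, AMT proteins move ammonium, and the AAP and LHT families move amino acids across the plasma membrane together with protons.

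Each table lists only genes that the authors had already called, all with an adjusted p below 0.05 and an at least doubled or halved level in their test, so a gene without a value was not listed and nothing is known of its level there. The names of the 2 stress tables give the other variety than their column headers, and varieties are named here as in the headers. Levels are in FPKM, fragment counts relative to transcript length and to the fragments of the library. The depth of the libraries is unknown, and values written to 2 decimals were too coarse at the low end to recover whole reads. The summed level of leaf photosynthesis markers was high in every library. Over the 9 of 11 listed markers with all values, their summed level was 1909 to 1947 FPKM in stressed QJ leaves, against 7076 to 7360 FPKM in QJ controls, and 805 to 811 FPKM in stressed LJ leaves, against 5327 to 5352 FPKM in LJ controls. Of these markers RbcS1 went the other way, with a mean of 1.13 FPKM in stressed QJ leaves, against 0.18 FPKM in QJ controls. Its LJ means were 13.5 FPKM in stressed leaves, against 6.09 FPKM in controls. Markers of floral organs and anthers were high in LJ controls. Over the 6 of 14 listed ones with all values they summed to 2.97 to 3.61 FPKM in stressed QJ leaves, 1.58 to 2.65 FPKM in QJ controls, 10.0 to 11.2 FPKM in stressed LJ leaves and 325 to 336 FPKM in LJ controls, with OSC6 at 0 in stressed QJ leaves and OsMADS7 at 0 in QJ controls. The 4 secondary wall markers summed to 2.85 to 3.06 FPKM in stressed QJ leaves, 6.74 to 7.53 FPKM in QJ controls, 9.31 to 11.7 FPKM in stressed LJ leaves and 152 to 164 FPKM in LJ controls. The part of these markers in the results below was not tested. In whole leaves, fewer cells of a type and less RNA per cell cannot be told apart.

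The 51 genes were 16 of the NRT1 and PTR family, 2 NRT2 genes, 4 ammonium transporters, 15 AAP and 4 LHT amino acid transporters, 2 nitrate reductases, 6 genes of glutamine synthetase, glutamate dehydrogenase and asparagine synthetase, and 2 genes whose symbol has or may have another meaning, which are described last. The authors' deposited table of QJ stress listed 21 of the 51 (41.2%), where 31.6% of all genes in the union were listed. In LJ stress 32 of 51 were listed (62.7%), against 52.5% of all genes. Between the varieties, 33 were listed for the controls (64.7%, against 57.4% of all genes) and 31 for the stressed leaves (60.8%, against 50.4%). Of the 21 in QJ stress, 12 were listed as higher under stress and 9 as lower. That was 57.1% higher, against 51.0% of all genes listed there. Of the 32 in LJ stress 20 were listed as higher and 12 as lower, 62.5% higher, against 47.5% of all genes listed there. Between controls 12 were listed as higher in QJ and 21 as lower, against 16.6% and 40.8% of all genes, and in stressed leaves 9 as higher and 22 as lower, against 16.2% and 34.3%. In both stress tables together 15 genes appeared, 10 higher in both, 4 lower in both and 1, the asparagine synthetase gene ASN1, lower in QJ and higher in LJ. The same sign was thus found for 14 of 15, near the 92.1% among all 2338 genes listed in both tables.

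**Figure D1:**
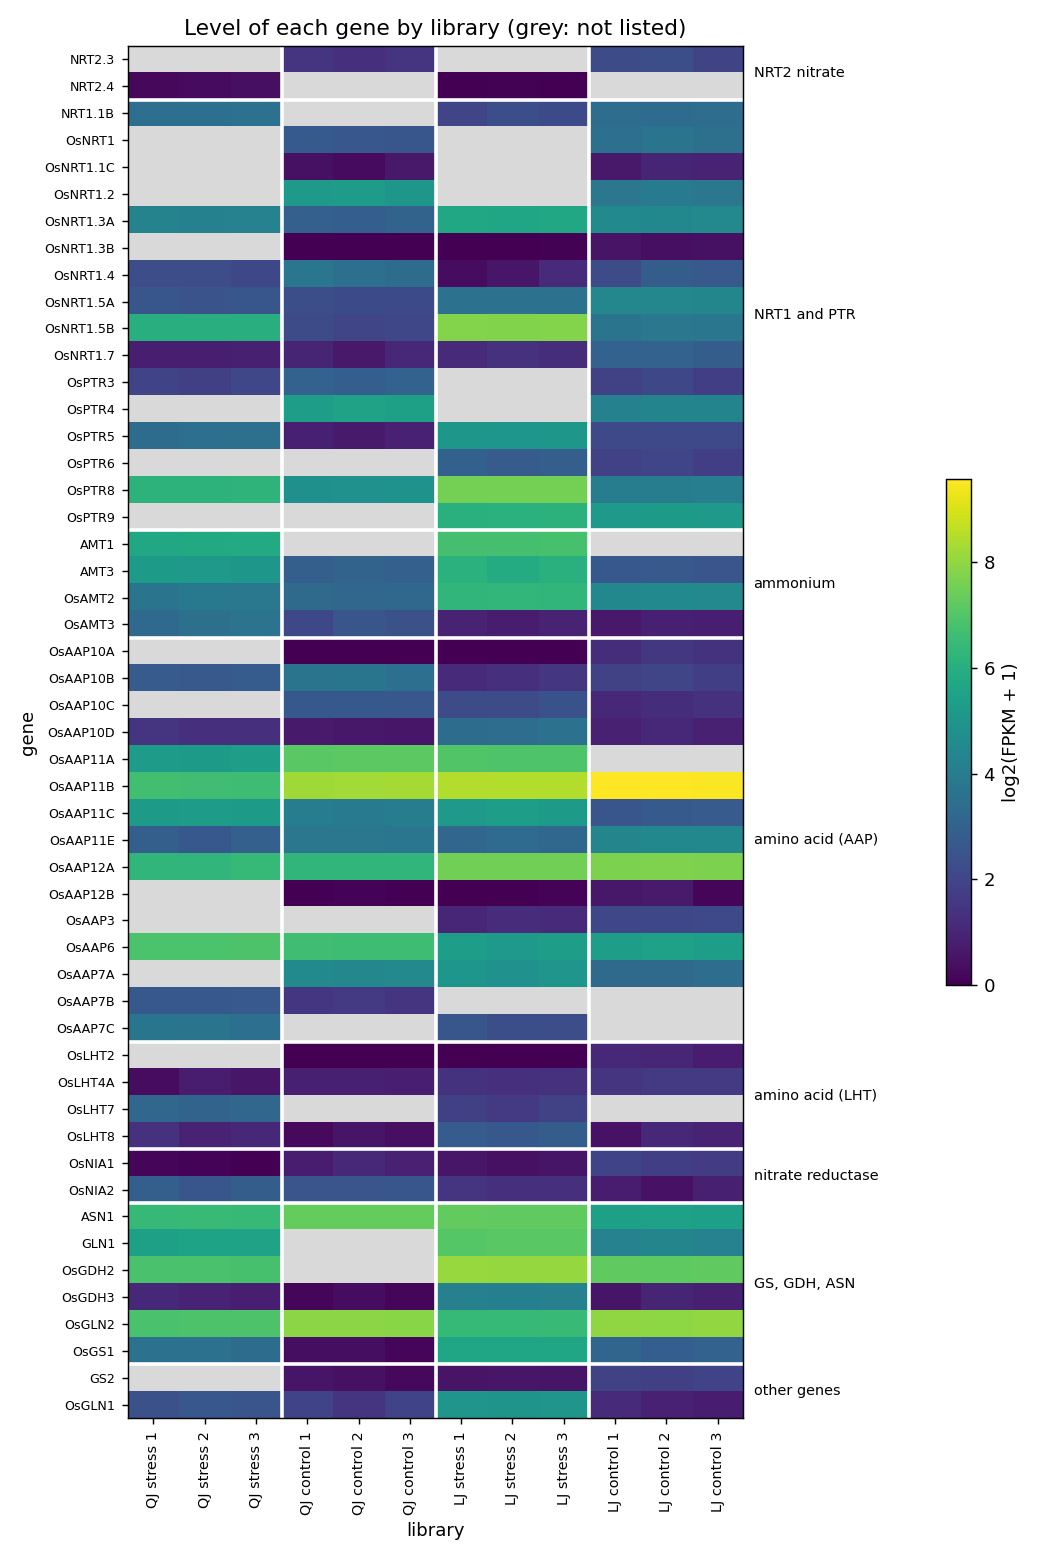
Level of each of the 51 genes (rows, by family) in each of the 12 libraries (columns, by group) on the log2(FPKM + 1) scale, with grey where a gene was not listed. OsAAP11B holds the brightest cells, at 727 to 757 FPKM in LJ controls, and the 3 libraries of a group are alike in colour for most genes.

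Among nitrate and peptide transporters, OsNRT1.5B, OsPTR5, OsPTR8 and OsNRT1.3A rose under stress in both varieties, OsNRT1.4 fell in both, and OsNRT1.7 fell in LJ. OsNRT1.5B (Os02g0716800) is named for Arabidopsis NRT1.5, which loads nitrate into the root xylem. It had 63.8, 63.00 and 64.2 FPKM in stressed QJ leaves, against 3.67, 2.98 and 3.13 FPKM in QJ controls, a rise of 3.93 ± 0.0746 (SE) on the log2(FPKM + 1) scale, on which all changes below are given, or 15.2-fold. In LJ it had 218, 215 and 219 FPKM in stressed LJ leaves, against 11.7, 12.9 and 12.4 FPKM in LJ controls, a rise of 4.04 ± 0.0416, 16.4-fold. The stressed libraries of each variety lay far above its controls, and LJ was above QJ in both conditions. The similarly named OsNRT1.5A (Os02g0689900) was listed only between the varieties. It had 4.95, 4.50 and 4.97 FPKM in stressed QJ leaves, against 3.91, 3.41 and 3.43 FPKM in QJ controls, and 10.8, 11.2 and 10.8 FPKM in stressed LJ leaves, against 20.6, 20.5 and 20.1 FPKM in LJ controls. In the fit over all 12 libraries it rose by 0.34 ± 0.0678 in QJ and fell by 0.85 in LJ, and its highest level was in LJ controls. With an added 1 to each value, low genes have smaller changes on this scale than in ratios of means.

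OsPTR8 (Os03g0719900), of the peptide transporter branch, had 72.3, 71.4 and 73.7 FPKM in stressed QJ leaves, against 27.01, 27.4 and 29.4 FPKM in QJ controls. Stressed LJ leaves had 190.5, 191 and 186 FPKM, against 15.8, 14.99 and 16.04 FPKM in LJ controls. It rose by 1.35 ± 0.0461 in QJ, 2.54-fold, and by 3.52 ± 0.0378 in LJ, 11.5-fold, and the order of the varieties turned, with LJ higher under stress and lower in controls. OsPTR5 (Os04g0597600) was low in QJ controls, with 9.51, 10.2 and 10.5 FPKM in stressed QJ leaves, against 0.77, 0.60 and 0.84 FPKM in QJ controls. In LJ its levels were 32.6, 31.5 and 32.1 FPKM in stressed LJ leaves, against 3.32, 3.27 and 3.31 FPKM in LJ controls. It rose by 2.67 ± 0.102 in QJ and by 2.94 ± 0.0587 in LJ, with no overlap between groups. OsNRT1.3A (Os02g0580900) had 18.4, 17.5 and 17.7 FPKM in stressed QJ leaves, against 6.70, 6.34 and 7.27 FPKM in QJ controls. Its LJ libraries held 50.7, 48.98 and 51.2 FPKM in stressed LJ leaves, against 22.8, 21.3 and 21.6 FPKM in LJ controls. The rises were 2.43-fold in QJ and 2.24-fold in LJ, and LJ was above QJ in both conditions.

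OsNRT1.4 (Os01g0556700) shares its name with Arabidopsis NRT1.4, a petiole nitrate transporter. It had 3.78, 3.82 and 3.26 FPKM in stressed QJ leaves, against 12.6, 10.1 and 9.42 FPKM in QJ controls. In LJ it had 0.25, 0.49 and 1.21 FPKM in stressed LJ leaves, against 3.67, 6.00 and 5.32 FPKM in LJ controls, the third stressed library well above the other two. It fell by 1.34 in QJ and by 1.88 in LJ. OsNRT1.7 (Os01g0913300), named for the Arabidopsis transporter that loads nitrate into the phloem of old leaves, had 0.75, 0.73 and 0.77 FPKM in stressed QJ leaves, against 1.00, 0.56 and 1.14 FPKM in QJ controls. LJ libraries had 1.27, 1.60 and 1.39 FPKM in stressed LJ leaves, against 7.05, 7.00 and 6.13 FPKM in LJ controls. It fell by 1.67 in LJ, and its LJ controls, the group with floral and secondary wall markers, stood above the other 3 groups. In limma with Benjamini-Hochberg adjustment over all genes of a table, all tested genes of this family had an adjusted p under 0.05 in both stress tables. So did 99.7% of all tested genes, which the authors had preselected on these libraries. OsPTR5 in QJ entered only through its stressed libraries and OsNRT1.4 in LJ only through its controls. These calls are thus no independent support.

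The other 9 genes of the family had values in 6 or 9 libraries. NRT1.1B (Os10g0554200), a rice nitrate transporter and sensor, averaged 10.4 ± 0.350 FPKM in stressed QJ leaves and 3.49 ± 0.470 FPKM in stressed LJ leaves (SD, n = 3 libraries per group here and below), and LJ controls had 9.45 ± 0.312 FPKM. It fell by 1.22 in LJ and was higher in QJ than in LJ under stress by 1.35 ± 0.102. OsNRT1.2 (Os06g0581000) averaged 35.2 ± 2.69 FPKM in QJ controls and 13.3 ± 0.784 FPKM in LJ controls, 2.53-fold higher in QJ. OsPTR9 (Os06g0706400), which is known to affect nitrogen uptake and yield in rice, averaged 67.6 ± 1.92 FPKM in stressed LJ leaves and 35.7 ± 0.616 FPKM in LJ controls, a rise of 0.90 ± 0.0378. OsPTR6 also rose in LJ, by 0.98 ± 0.104, while OsPTR3 fell in QJ, by 1.03. Between controls, OsPTR4 and OsPTR3 were higher in QJ, by 1.15 ± 0.0557 and 1.06 ± 0.107, and OsNRT1 was lower in QJ, by 0.94. OsNRT1.1C and OsNRT1.3B were under 1 FPKM in every library in which they were listed. Both NRT2 genes were low. NRT2.3 (Os01g0704100) had 1.70, 1.42 and 1.80 FPKM in QJ controls, against 3.64, 3.90 and 2.94 FPKM in LJ controls, lower in QJ by 0.76 (limma adjusted p = 0.000278). That call was lost with libraries centred on their medians, at -0.16, and under quantile normalization, at -0.087. NRT2.4 (Os01g0547600) had 0.16, 0.21 and 0.32 FPKM in stressed QJ leaves, against 0, 0.04 and 0 FPKM in stressed LJ leaves, too low to be tested.

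Of the ammonium transporter genes AMT3 and OsAMT2 rose under stress in both varieties, and OsAMT3 rose in QJ. Over the 3 with all values their summed level was 57.4 ± 0.590 FPKM in stressed QJ leaves, against 19.3 ± 0.606 FPKM in QJ controls, and 143 ± 4.78 FPKM in stressed LJ leaves, against 27.3 ± 0.681 FPKM in LJ controls. AMT3 (Os03g0838400) had 36.1, 33.8 and 32.8 FPKM in stressed QJ leaves, against 6.53, 7.26 and 6.73 FPKM in QJ controls. Stressed LJ leaves had 67.3, 57.99 and 66.6 FPKM, against 5.26, 5.30 and 4.68 FPKM in LJ controls. It rose 4.49-fold in QJ (2.17 ± 0.0678) and 10.7-fold in LJ (3.42 ± 0.0765), and no control library came near a stressed one. OsAMT2 (Os01g0831300) had 11.9, 13.4 and 13.2 FPKM in stressed QJ leaves, against 8.98, 7.81 and 8.50 FPKM in QJ controls. Its LJ values were 78.5, 79.3 and 78.2 FPKM in stressed LJ leaves, against 21.01, 22.01 and 21.6 FPKM in LJ controls. The rise was 3.53-fold in LJ (1.82 ± 0.0371), while QJ, where the gene was not listed, rose by 0.56 ± 0.0590 in the fit over all 12 libraries.

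The second gene of that number, OsAMT3 (Os02g0550800), was higher in QJ in both conditions. It had 8.77, 10.7 and 11.4 FPKM in stressed QJ leaves, against 3.19, 4.84 and 4.14 FPKM in QJ controls, a rise of 1.16 ± 0.148. In LJ it stayed low, with 0.92, 0.67 and 0.91 FPKM in stressed LJ leaves, against 0.57, 0.80 and 0.74 FPKM in LJ controls. That difference was 0.11 ± 0.133 and did not pass in the fit over all 12 libraries (limma adjusted p = 0.479). OsAMT3 entered that fit only through its QJ levels. Stressed QJ leaves were above stressed LJ leaves by 2.62 ± 0.124. AMT1 (Os04g0509600), which RefSeq also names OsAMT1, was listed only for the stressed leaves, with 50.8, 54.8 and 56.5 FPKM in QJ, against 107, 107 and 109 FPKM in LJ. It was lower in QJ by 0.98, and had the highest level of the 4 ammonium transporters in stressed leaves of each variety.

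Amino acid transporters moved in both directions, with OsAAP11C, OsAAP10D and OsLHT8 rising in both varieties and the abundant OsAAP11B and OsAAP11A falling in QJ. The numbers of AAP genes follow the tables and may differ from those used elsewhere. OsAAP11B (Os12g0181600) reached the highest level listed for the 51 genes, in LJ controls. It had 102, 98.9 and 95.2 FPKM in stressed QJ leaves, against 295, 303 and 306 FPKM in QJ controls. In LJ it had 350.2, 353 and 353 FPKM in stressed LJ leaves, against 749.9, 757 and 727 FPKM in LJ controls. It fell by 1.60 in QJ, 3.04-fold, and, where it was not listed, by 1.08 in LJ in the fit over all 12 libraries. Its neighbour in locus number, OsAAP11A (Os12g0181500), had 37.4, 36.2 and 39.7 FPKM in stressed QJ leaves, against 137, 143 and 143 FPKM in QJ controls, and 124, 121 and 122 FPKM in stressed LJ leaves. It fell by 1.88 in QJ, so both fell there, and how the authors counted reads shared by similar genes is not given in the sources used here. OsAAP11E (Os01g0882800) had 6.47, 5.18 and 6.58 FPKM in stressed QJ leaves, against 12.9, 12.9 and 12.4 FPKM in QJ controls. It had 7.84, 9.20 and 8.45 FPKM in stressed LJ leaves, against 19.3, 21.01 and 21.3 FPKM in LJ controls, and fell in both varieties, by 0.96 in QJ and 1.18 in LJ.

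Rising members were OsAAP11C, OsAAP10D and OsLHT8. OsAAP11C (Os11g0195600) had 35.9, 36.9 and 35.8 FPKM in stressed QJ leaves, against 15.4, 14.04 and 15.8 FPKM in QJ controls. In LJ its levels were 35.4, 39.2 and 35.6 FPKM in stressed LJ leaves, against 4.97, 5.62 and 5.74 FPKM in LJ controls. It rose 2.31-fold in QJ and 5.86-fold in LJ, reaching similar levels in both. OsAAP10D (Os01g0878700) had 1.68, 1.51 and 1.48 FPKM in stressed QJ leaves, against 0.60, 0.52 and 0.49 FPKM in QJ controls. LJ libraries held 9.49, 9.56 and 10.9 FPKM in stressed LJ leaves, against 0.83, 1.08 and 0.82 FPKM in LJ controls. The rise was 0.73 ± 0.0892 in QJ and 2.52 ± 0.103 in LJ, with stressed LJ leaves above all other groups. OsLHT8 (Os05g0237800), of the lysine and histidine transporter family, had 1.57, 0.91 and 1.10 FPKM in stressed QJ leaves, against 0.19, 0.44 and 0.30 FPKM in QJ controls. Its LJ values were 5.97, 5.24 and 6.03 FPKM in stressed LJ leaves, against 0.37, 1.14 and 0.94 FPKM in LJ controls. It rose by 1.92 ± 0.170 in LJ and, too low to be tested in its QJ table, by 0.74 ± 0.161 in QJ in the fit over all 12 libraries.

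Other members differed between the varieties. OsAAP6 (Os07g0134000) had 114, 115 and 117 FPKM in stressed QJ leaves, against 98.4, 96.5 and 96.01 FPKM in QJ controls. Stressed LJ leaves had 39.3, 35.3 and 38.7 FPKM, against 40.4, 42.9 and 40.00 FPKM in LJ controls. QJ was above LJ by 1.58 ± 0.0450 under stress and 1.22 ± 0.0381 in controls. OsAAP12A (Os06g0556000) had the reverse order, with 77.1, 78.2 and 83.4 FPKM in stressed QJ leaves, against 77.6, 77.2 and 78.2 FPKM in QJ controls. In LJ the values were 182, 182 and 184 FPKM in stressed LJ leaves, against 205, 211 and 205 FPKM in LJ controls. QJ was lower by 1.19 under stress and 1.40 in controls. OsAAP10B (Os12g0194900) had 5.65, 5.33 and 5.89 FPKM in stressed QJ leaves, against 11.9, 12.1 and 10.3 FPKM in QJ controls. Its LJ levels were 1.28, 1.43 and 1.85 FPKM in stressed LJ leaves, against 2.69, 3.01 and 2.46 FPKM in LJ controls. It fell by 0.91 in QJ and by 0.57 in LJ in the fit over all 12 libraries, and QJ was above LJ in both conditions. OsAAP7A (Os04g0470700) averaged 30.0 ± 2.28 FPKM in stressed LJ leaves and 9.18 ± 0.505 FPKM in LJ controls, 3.04-fold higher under stress. OsAAP10C rose in LJ by 1.03 ± 0.110, OsAAP7B rose in QJ by 1.14 ± 0.0972, and OsAAP3 fell in LJ by 0.95. OsAAP7C and OsLHT7 were listed only for stressed leaves, where they were higher in QJ than in LJ by 1.26 ± 0.109 and 1.35 ± 0.102. OsLHT4A, the second LHT gene with all values, was at most 2.12 FPKM, and was lower in QJ controls than in LJ controls by 0.75. Under quantile normalization this difference was 0.048, with QJ higher and not past the threshold.

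Several scarce genes had their highest levels in LJ controls among the groups in which they were listed, and 4 of them, at or near 0 in the other groups, are named here after their values were seen. OsAAP10A (Os06g0228800) was listed at 0 in every library of stressed LJ leaves and of QJ controls, against 1.39, 1.91 and 1.67 FPKM in LJ controls. OsLHT2 (Os12g0244400) was likewise listed at 0 in stressed LJ leaves and QJ controls, against 1.07, 1.04 and 0.65 FPKM in LJ controls. OsAAP12B (Os06g0556200) was at no more than 0.07 FPKM in any stressed LJ or QJ control library, against 0.55, 0.62 and 0.10 FPKM in LJ controls. OsNRT1.3B (Os04g0464400) was at no more than 0.05 FPKM in those libraries, against 0.41, 0.30 and 0.36 FPKM in LJ controls. Floral, anther and secondary wall markers were high in the same LJ control libraries, at the sums given above, and their part in these values was not tested. None of the 4 was listed for stressed QJ leaves. Higher levels in LJ controls were common, as 40.8% of all genes in the union were listed as lower in QJ controls. In LJ stress 27.6% were listed as lower than in LJ controls. The abundant OsAAP11B and OsAAP12A were also highest in LJ controls.

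The 2 nitrate reductase genes were scarce and moved in opposite directions in LJ. OsNIA1 (Os02g0770800) had 0.11, 0.07 and 0.02 FPKM in stressed QJ leaves, against 0.69, 1.14 and 0.83 FPKM in QJ controls. In LJ it had 0.49, 0.34 and 0.47 FPKM in stressed LJ leaves, against 2.78, 2.43 and 2.18 FPKM in LJ controls. It fell by 1.27 in LJ, and by 0.82 in QJ in the fit over all 12 libraries. OsNIA1 entered that fit only through its LJ control levels. OsNIA2 (Os08g0468700) had 6.39, 4.88 and 6.09 FPKM in stressed QJ leaves, against 4.73, 4.74 and 4.86 FPKM in QJ controls. LJ values were 1.71, 1.47 and 1.52 FPKM in stressed LJ leaves, against 0.65, 0.37 and 0.79 FPKM in LJ controls. It rose by 0.69 ± 0.119 in LJ, and QJ was above LJ by 1.86 ± 0.116 in controls and 1.40 ± 0.118 under stress. The nitrite reductase gene NiR (Os01g0357100), which carries no digit and so lies outside the 51, is given because it acts on the product of nitrate reductase and was chosen after its values were seen. It had 35.2, 30.9 and 34.9 FPKM in stressed QJ leaves, against 131, 128 and 136 FPKM in QJ controls. Stressed LJ leaves had 18.9, 19.99 and 19.8 FPKM, against 43.5, 45.5 and 42.7 FPKM in LJ controls. It fell 3.82-fold in QJ and 2.18-fold in LJ, and QJ controls were above LJ controls by 1.56 ± 0.0386. OsNIA1 and NiR fell in the same libraries in which the summed level of the photosynthesis markers fell. The part of these markers was not tested.

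In ammonium assimilation the plastid glutamine synthetase gene fell in both varieties while a cytosolic form rose in both. OsGLN2 (Os04g0659100), which RefSeq also names OsGS2 and which is known as the plastid form, had 113, 118 and 117 FPKM in stressed QJ leaves, against 239, 239.7 and 234 FPKM in QJ controls. In LJ it had 84.6, 84.3 and 86.3 FPKM in stressed LJ leaves, against 249.7, 247 and 256 FPKM in LJ controls. It fell 2.04-fold in QJ (-1.03 ± 0.0285) and 2.93-fold in LJ (-1.55 ± 0.0263), together with the summed level of the photosynthesis markers. OsGS1 (Os03g0712800), a cytosolic form, had 10.8, 10.98 and 9.34 FPKM in stressed QJ leaves, against 0.29, 0.29 and 0.10 FPKM in QJ controls. Its LJ values were 48.6, 50.2 and 49.9 FPKM in stressed LJ leaves, against 7.69, 6.24 and 6.97 FPKM in LJ controls. It rose by 3.21 ± 0.116 in QJ, where all control libraries were under 1 FPKM, and by 2.67 ± 0.0729 in LJ, 6.37-fold. The second cytosolic gene, GLN1 (Os03g0223400), had 42.5, 45.8 and 44.7 FPKM in stressed QJ leaves. It had 131, 138 and 137 FPKM in stressed LJ leaves, against 18.00, 19.3 and 18.1 FPKM in LJ controls, a 7.00-fold rise in LJ, and under stress QJ was lower than LJ by 1.59.

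ASN1 (Os03g0291500), asparagine synthetase, moved in opposite directions in the varieties. It had 84.8, 87.4 and 84.8 FPKM in stressed QJ leaves, against 158, 158 and 157 FPKM in QJ controls. Stressed LJ leaves had 153, 149 and 150.2 FPKM, against 42.5, 43.1 and 40.8 FPKM in LJ controls. It fell by 0.87 in QJ, 1.83-fold, and rose by 1.81 ± 0.0334 in LJ, 3.52-fold, with no overlap of stressed and control libraries in either variety. QJ controls were above LJ controls by 1.88 ± 0.0316, and stressed QJ leaves lower than stressed LJ leaves by 0.81. Under quantile normalization the last difference was 0.18, with QJ higher, and it passed in that opposite direction (limma adjusted p = 0.000884).

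OsGDH3 (Os02g0650900), a glutamate dehydrogenase, had 1.08, 0.92 and 0.74 FPKM in stressed QJ leaves, against 0.10, 0.26 and 0.11 FPKM in QJ controls. In LJ it had 16.9, 16.7 and 17.1 FPKM in stressed LJ leaves, against 0.45, 0.97 and 0.80 FPKM in LJ controls. Stressed LJ libraries were far above all others, with a rise of 3.37 ± 0.123 in LJ, against 0.73 ± 0.118 in QJ in the fit over all 12 libraries. OsGDH2 (Os04g0543900), a more abundant gene of the same enzyme, averaged 111 ± 1.93 FPKM in stressed QJ leaves. It averaged 265 ± 2.54 FPKM in stressed LJ leaves and 147 ± 1.46 FPKM in LJ controls, 1.80-fold higher under stress. In the fits of each table alone, the tested genes of these enzymes all passed in QJ and LJ stress. So did 99.7% of all tested genes, which the authors had preselected on these libraries. OsGS1 in QJ and OsGDH3 in LJ entered these fits only through their stressed libraries. These calls are thus no independent support. OsGDH3 was too low to be tested in its QJ table. It entered the fit over all 12 libraries only through its stressed LJ levels, so its QJ change is given without a p-value.

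**Figure D2:**
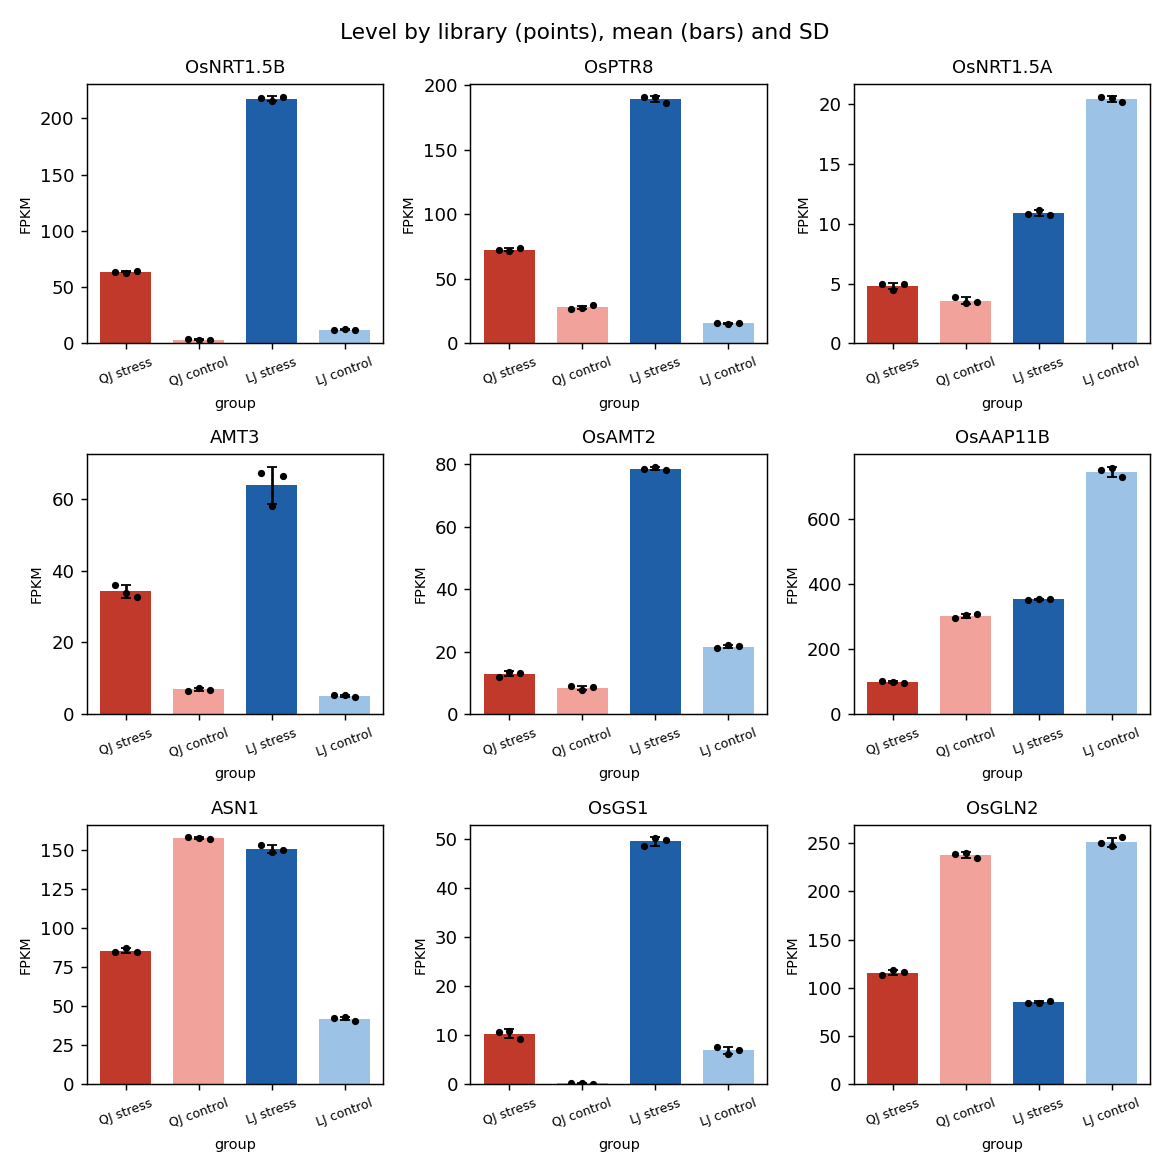
Level in FPKM of 9 genes in the 4 groups; bars are means of 3 libraries, error bars the SD and points the libraries. OsNRT1.5B, AMT3 and OsGS1 are higher under stress in both varieties, OsGLN2 is lower in both, and ASN1 is lower under stress in QJ and higher in LJ.

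Counted over the genes that passed the filter of at least 1 FPKM in at least 3 libraries, 18 of the 21 listed were tested in QJ stress, of which 10 rose and 8 fell. Because the authors had already called the listed genes on these libraries, 99.7% of all tested genes passed there, 50.7% as higher and 49% as lower, so the count says little of these genes. In LJ stress 29 of the 32 listed were tested, with 20 rises and 9 falls, where 99.7% of all tested genes passed, 49.6% as higher and 50% as lower. The median change was 0.94 in QJ, against 0.66 over all tested genes, and 1.16 in LJ, against -0.54. With at least 5 FPKM in 3 libraries asked, the medians over all tested genes turned to -0.56 in QJ and 0.87 in LJ. Their sign is thus no firm baseline. Between controls 27 of 33 were tested, 12 higher and 15 lower in QJ, where 99.7% of all tested genes passed, 31.1% as higher and 68.6% as lower. In stressed leaves 29 of 31 were tested, 8 higher and 21 lower in QJ, where 99.4% of all tested genes passed, 34% as higher and 65.4% as lower. The groups did not overlap in any tested gene of the 51 in these 4 comparisons, with adjusted p at most 0.00112. Overlap was not counted over all tested genes. As all of them were preselected on these libraries, its absence says little of the 51. The comparisons between varieties share their libraries with the stress comparisons.

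Whether the varieties responded differently was tested as the difference of the 2 changes, QJ minus LJ, in 1 fit over all 12 libraries. Of the 26 genes with all values 20 passed, 8 with a positive and 12 with a negative difference, a share of 76.9% where 66.4% of all 5170 tested genes passed, 41.4% as positive and 25% as negative. Over all genes this was 2140 positive and 1291 negative differences. With each library centred on its median the split over all genes turned to 1405 positive and 1827 negative, and among the 26 genes 4 were positive and 15 negative. Among the 26 genes, and leaving aside OsGLN1, whose identity was not settled, the largest negative differences were in ASN1 (-2.69 ± 0.0409), OsGDH3 (-2.65 ± 0.166), OsPTR8 (-2.17 ± 0.0577) and OsAAP10D (-1.79 ± 0.127). All 3 ammonium transporters passed, AMT3 at -1.25, OsAMT2 at -1.27 and OsAMT3 at 1.06, the last with the larger change in QJ. Positive differences were found for OsNRT1.7 (1.57 ± 0.164) and OsNRT1.5A (1.19 ± 0.0958), both highest in LJ controls. These 9 genes passed, in the same direction, in each of the 22 fits tried for this difference. With the main filter OsGDH3 entered only through its stressed LJ levels, OsAMT3 only through its QJ levels and OsNRT1.7 only through its LJ levels. Their calls thus partly restate how these genes entered and are no independent support. OsNRT1.7 and OsNRT1.5A were highest in the LJ control libraries that also held the floral and secondary wall markers, and the part of these markers was not tested.

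OsNRT1.5B, the gene with the largest rise in both varieties among the nitrate transporters, had a difference of -0.11 ± 0.0820 (limma adjusted p = 0.263), with a 95% interval of -0.27 to 0.05. OsNRT1.3A had a difference of 0.12 ± 0.0775, with an interval of -0.03 to 0.27. The fall of OsNRT1.4 differed by 0.55 ± 0.285 and that of OsAAP11E by 0.22 ± 0.122, neither past the threshold. For OsNRT1.4 the difference was 0.78 and passed without the third stressed LJ library, and it was 0.72 and passed without the first LJ control. With 0.1 added to each value in place of 1 it was 1.41 and passed too. For OsAAP11E it was 0.31 and passed without the second stressed QJ library. Median centring gave -0.41 for OsNRT1.5B, past the threshold, and quantile normalization 0.091, not past it. OsGLN2 fell more in LJ, with a difference of 0.52 ± 0.0361, and OsAAP11B fell more in QJ, with a difference of -0.52 ± 0.0375.

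**Figure D3:**
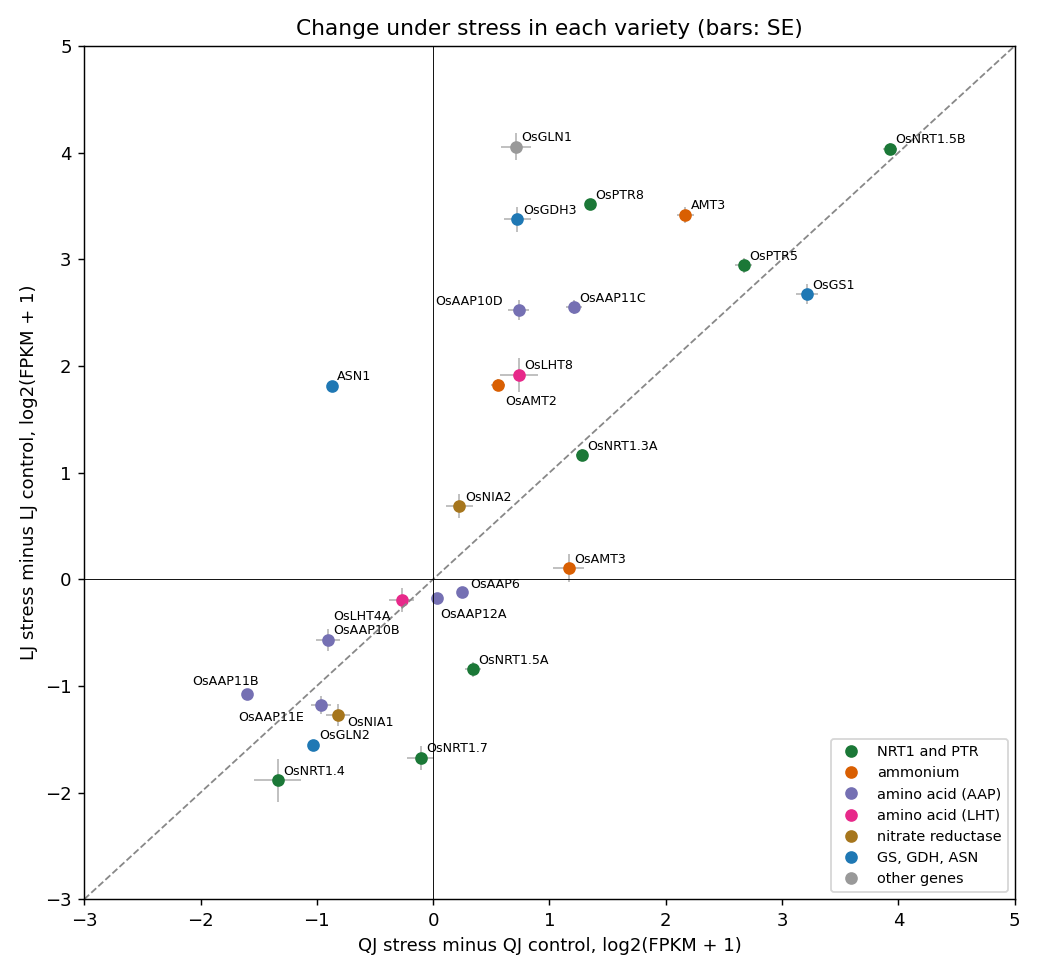
Change under stress in QJ (horizontal) and in LJ (vertical) of the 26 genes with values in all 12 libraries, as log2(FPKM + 1) differences from the fit over all libraries; bars are standard errors, the dashed line marks equal change and colours mark families. ASN1 is the gene at upper left, at -0.87 in QJ and 1.81 in LJ, and OsNRT1.5B lies near the line, at 3.93 in QJ and 4.04 in LJ.

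**Figure D4:**
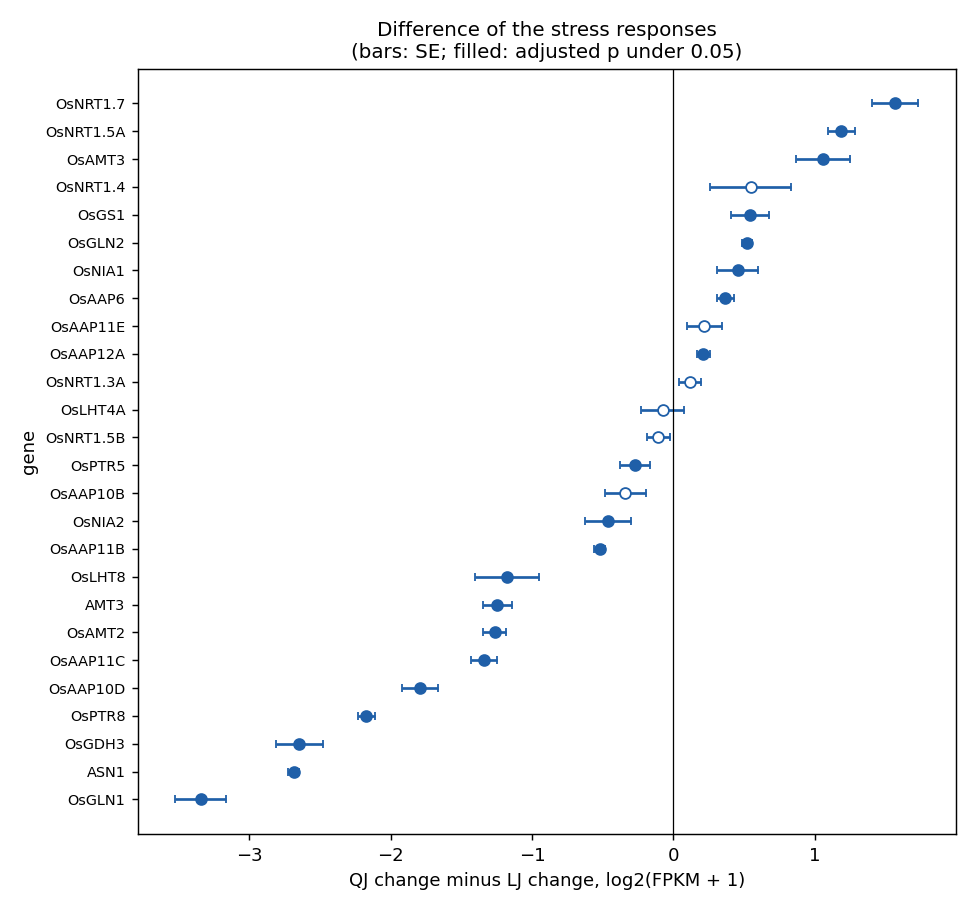
Difference of the stress responses, QJ change minus LJ change on the log2(FPKM + 1) scale, for the 26 genes with values in all 12 libraries; bars are standard errors and filled points have an adjusted p under 0.05. Filled points stand at both ends, from -3.34 for OsGLN1 to 1.57 for OsNRT1.7, and 6 open points lie between -0.34 and 0.55.

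A further list of nitrogen-use genes, among them other amino acid transporter families (ATL, BAT, GAT, ANT and UMAMIT), arginase and proline dehydrogenase, held 41 listed genes. In QJ stress 18 were tested, of which 14 rose and 4 fell, and in LJ stress 28, of which 21 rose and 7 fell, where 99.7% of all tested genes passed in each table, 50.7% as higher in QJ and 49.6% in LJ. Their median change was 1.25 in QJ and 1.39 in LJ, against 0.66 and -0.54 over all tested genes, medians whose sign turned with the filter. The proline dehydrogenase gene OsProDH (Os10g0550900), which breaks down proline, rose by 1.20 ± 0.0798 in QJ and 1.59 ± 0.0440 in LJ, with 42.2 ± 3.33 FPKM in stressed QJ leaves, against 17.8 ± 1.49 FPKM in QJ controls, and 57.1 ± 2.07 FPKM in stressed LJ leaves, against 18.2 ± 0.238 FPKM in LJ controls. Arginase, OsARG (Os04g0106300), which releases urea from arginine, rose by 1.42 ± 0.0541 in QJ and 1.51 ± 0.0505 in LJ. For the difference of responses 21 were tested and 13 passed (61.9%, where 66.4% of all tested genes passed), 6 positive and 7 negative.

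For 2 of the 51 genes the name stands for something else or may do so. RefSeq pairs the symbol GS2 on the chromosome of GS2 (Os02g0701300) with OsGRF4, a growth-regulating factor known for its effect on grain size. It had 0.43, 0.48 and 0.44 FPKM in stressed LJ leaves and 0.47, 0.33 and 0.14 FPKM in QJ controls, against 2.70, 2.54 and 2.76 FPKM in LJ controls. OsGLN1 (Os01g0946700) shares its symbol with a rice beta-1,3-glucanase, has no description in the tables and has a locus number near those of the glucanase genes Gns2 and Gns3, and its identity was not settled here. It had 4.12, 4.98 and 4.69 FPKM in stressed QJ leaves, against 2.77, 1.81 and 2.75 FPKM in QJ controls. Stressed LJ leaves had 30.4, 30.3 and 31.1 FPKM, against 1.20, 0.83 and 0.71 FPKM in LJ controls, a rise of 4.06 ± 0.106, and its difference of responses was -3.34 ± 0.181. Without these 2 genes the counts were 19 rises and 8 falls in LJ stress, 11 higher and 14 lower between controls, and 8 higher and 20 lower in stressed leaves.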

How the data were processed

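RNA of rice leaves was sequenced in 12 libraries of 4 groups, 3 libraries each. Samples were grouped by their titles, and table columns were matched to titles by group and replicate number. The deposited values are FPKM per gene and library, computed by the authors, and the depth behind them is unknown. For the genes they had selected, the authors also deposited the mean of each group and, from their own test, a log2 fold change, a p-value and its adjusted form. Their aligner, counter, genome build and test remain unstated in the labels and the file headers. Of 31572 values present in more than 1 table, 0 differed between tables. The descriptions of the QJ samples share library names, so which QJ column is which replicate rests on titles.

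The 51 genes, the further list of nitrogen genes and the marker lists were chosen with earlier results of these data known. From the further list 3 of 44 matches with unrelated names were dropped after names were seen. Values of every library were given for genes with all 12 values and at least 5 FPKM in the highest group, and for up to 4 genes of a class with the largest change. Folds were given only where the lower group had at least 1 FPKM, from the limma change. RefSeq gene names of the ASM3414082v1 assembly matched 6 of the 51, and sequences were not used here.

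Limma 3.58.1 in R 4.3.3, with a trended prior, was fitted to log2(FPKM + 1) in each table on its own, on genes that reached 1 FPKM in 3 or more libraries. The difference of responses came from a fit over all 12 libraries on genes with every value. Changes of genes missing from a stress table, or too low there to be tested, come from this second fit, a use chosen after seeing the data. Tests were two-sided, with Benjamini-Hochberg adjustment over all tested genes, and passed at an adjusted p under 0.05. The scripts were tested on simulated data. Python 3.11.15 with numpy 2.4.6 and pandas 2.3.3 handled the tables, and matplotlib 3.10.9 drew the plots. Alternatives were pseudocounts of 0.1 and 0.5, other filters, a change of at least 1, median centring and quantile normalization. Others were a robust or an untrended limma prior, the replicate number as a block, and leaving out each library. A shift to the authors' own fold scale was tried for the stress and variety comparisons but not for the difference of responses.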

Additional observations from a re-analysis of the deposited data

Results flagged for a closer look

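For 20 of the 26 genes with all values the limma test of the difference itself, QJ change minus LJ change on the log2(FPKM + 1) scale, passed, where 66.4% of all tested genes did. Larger rises in LJ, or a fall in QJ against a rise in LJ, gave negative differences for OsGLN1 (-3.34), ASN1 (-2.69), OsGDH3 (-2.65), OsPTR8 (-2.17), OsAAP10D (-1.79), OsAAP11C (-1.34), OsAMT2 (-1.27), AMT3 (-1.25), OsLHT8 (-1.18) and OsNIA2 (-0.46), and a larger fall in QJ gave -0.52 for OsAAP11B. Larger falls in LJ gave positive differences for OsNRT1.7 (1.57) and OsGLN2 (0.52), and a larger rise in QJ for OsAMT3 (1.06) and OsGS1 (0.54, with a range of 0.24 to 2.25 over the fits, the highest with a pseudocount of 0.1). OsNRT1.5A (1.19) rose in QJ and fell in LJ in the fit over all libraries. The direction depended on the pseudocount for OsPTR5, at -0.27 with 1 added and 0.37 with 0.1 added, and for OsNIA1, at 0.45 with 1 added and -0.31 with 0.1 added. For OsAAP6 and OsAAP12A the differences were 0.37 and 0.21.

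Of these 20 calls 13 held in every fit tried for the difference. With the main filter OsGDH3 entered only through stressed LJ leaves, OsNIA1 only through LJ controls, OsAMT3 only through QJ and OsNRT1.7 only through LJ. Their calls partly restate how these genes entered. A shift to the authors' fold scale was not tried for the difference. The median log2 FPKM ratio minus their log2 fold change was 0.145 in QJ stress and -0.142 in LJ stress. OsPTR5 lost the call without any of 10 of the 12 libraries, each left out alone. OsNIA2 lost it without the second stressed QJ library (-0.36), the first stressed LJ library (-0.42) or the second LJ control (-0.35). The calls of OsNIA1, OsGS1, OsLHT8, OsAAP6 and OsAAP12A were lost under a rescaling or another pseudocount.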

How the results depend on the processing

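In QJ and LJ stress, each tested gene of the 51 kept its direction and its call in every refit that tested it (293 and 461 refits). The authors had preselected these genes on the same libraries, and 99.7% of all tested genes passed in each table. The share of stable calls over all genes was not computed, so this says little of the 51. Between controls 5 refits of 420 lost a call and 1 reversed, in stressed leaves 1 and 1 of 473, and for the difference of responses 20 lost one, 12 gained one and 9 reversed, of 543, over 13 of 26 genes. The genes counted as lower were 5, against 8, in QJ stress when a change of at least 1 was asked. With at least 5 FPKM asked they were 4, against 9, in LJ stress and 9, against 15, between controls, with fewer genes tested. Positive differences of responses numbered 4 with median centring and 3 with a change of at least 1 (added after seeing the data), against 8.

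Quantile normalization turned OsLHT4A between controls to 0.048 and ASN1 between stressed leaves to 0.18, and OsNRT1.5B in the difference of responses to 0.091. Of these turned values only that of ASN1 passed. In that difference median centring turned OsAAP11E to -0.079, OsNRT1.3A to -0.18 and OsAAP12A to -0.086. A pseudocount of 0.1 turned OsNRT1.5B to 0.12, OsNIA1 to -0.31 and OsPTR5 to 0.37, and one of 0.5 turned OsNRT1.5B to 0.0097. OsLHT4A ran from -0.19 to 0.042 with 1 library left out. The cause was not tested.

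The median change over all tested genes moved with rescaling and with the filter. With at least 5 FPKM in 3 libraries asked it was -0.56 in QJ stress and 0.87 in LJ stress. With the main filter it was 0.66 in QJ stress, 0.34 with median centring and 0.40 with quantile normalization. In LJ stress it was -0.54, -0.48 and -0.17, between controls -1.02, -0.41 and -0.39, between stressed leaves -0.82, -0.68 and -0.43, and for the difference 0.21, -0.09 and 0.05, in the same order.

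With 1 library left out, 7 to 10 genes were higher and 8 lower in QJ stress, 18 to 20 and 6 to 9 in LJ stress, 10 to 12 and 10 to 15 between controls, 7 to 8 and 19 to 21 in stressed leaves, and 8 to 9 and 10 to 12 in the difference. Same-numbered libraries did not deviate together (correlations of -0.07 to 0.04 over 5170 genes). This showed no pairing by number, but it cannot tell whether same-numbered libraries were handled together. With the replicate block the counts of higher and lower genes were 10 and 8, 20 and 9, 12 and 15, 8 and 21, and 8 and 12, equal to those without it. Names matched on the stem alone gave 24, 34, 36 and 32 listed genes in the 4 tables, against 21, 32, 33 and 31. Unknown depth and preselected tables limit what the counts can show.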
